A study of Mus musculus with 2 samples.

Results

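Clec4f-negative macrophage barcodes were examined in 2 droplet libraries of single cells from mouse liver. A barcode, the tag of a droplet that may hold a cell, was chosen by 6 macrophage genes, of which at least 3 of C1qa, C1qb, C1qc, Adgre1, Csf1r and Cd5l had to be detected, together with no UMI (unique molecular identifier, a counted mRNA molecule) of Clec4f. It also needed at least 500 UMIs, at most 50% mitochondrial UMIs, fewer than 4 of 10 endothelial genes and fewer than 3 of 7 stellate cell genes. This selection gave 146 barcodes of the 47880 that passed the depth and mitochondrial limits, out of 50078 in all. The WT library held 75 of 29620 (0.253%, exact binomial 95% interval 0.199 to 0.317) and the HKO library held 71 of 18260 (0.389%, 0.304 to 0.490).

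Both libraries came from male mice kept on CD-HFD, a high-fat diet without choline that serves as a model of metabolic dysfunction-associated steatohepatitis (MASH), for 6 months from 8 weeks of age and then fasted. HKO mice carried miR-33 loxP/loxP alleles with Albumin-Cre, which removes the microRNA from hepatocytes and leaves the gene in macrophages, and WT mice were littermate controls. Each library pooled 3 livers, with hepatocytes and sorted live non-parenchymal cells mixed before capture, so there was 1 library per genotype and no replicate. Differences between genotypes were therefore not tested, and every interval below is at 95% and covers counting error only. The deleted microRNA carries the seed that pairs with its targets at bases 2 to 8, shown in capitals, and lies inside the Srebf2 gene at chr15:82198127-82198147 on the plus strand (RefSeq, GRCm38.p6).

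mmu-miR-33-5p: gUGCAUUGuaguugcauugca

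Kupffer cells are the resident macrophages of the liver sinusoids. They take up senescent red cells, bacteria and lipoproteins through scavenger and complement receptors, and Clec4f, a C-type lectin on chromosome 6 (83644542 to 83656187, GRCm38), is found in mice almost exclusively on them. When Kupffer cells are lost during steatohepatitis, monocytes from blood enter the liver, pass through stages that carry Ccr2 and Cx3cr1, and can take up lipid to become lipid-associated macrophages with Trem2, Gpnmb, Spp1 and Mmp12. Macrophages of the liver capsule and portal tracts also lack Clec4f.

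The macrophage label held for part of the selection. In the WT library the Clec4f-negative barcodes had a median of 8489 UMIs (range 1243 to 179670), and in the HKO library 1726 (801 to 30860). A list of 20 hepatocyte genes such as Alb and Apoa1 took a median of 15.1% of their UMIs in WT and 7.32% in HKO. The same list took 16.0% and 14.4% in hepatocyte RNA barcodes. These had no UMI of the 6 selecting genes or of the T and NK, B, neutrophil, dendritic, monocyte, endothelial and stellate lists. Clec4f was outside those lists and had 309 UMIs in 14638 such WT barcodes and 127 in 11541 HKO ones. The WT median thus lay close below that of the hepatocyte RNA barcodes, and the HKO median was further from it. Exactly 3 of the 6 selecting genes, the minimum, were found in 49 of 75 WT and 32 of 71 HKO barcodes.

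Barcodes were divided, after the data had been seen, at 0.5 of that hepatocyte RNA level, which is 7.98% in WT and 7.23% in HKO. Only 11 of 75 WT barcodes lay under it (14.7%, 7.56 to 24.7), against 35 of 71 in HKO (49.3%, 37.2 to 61.4). Of 20 macrophage genes that the selection did not use, among them Cd68, Lyz2, Ctss, Mertk and Tyrobp, these hepatocyte-poor barcodes held a median of 16 in WT and 10 in HKO. The remaining hepatocyte-rich barcodes held 4 in each library. T cell barcodes, which should lack most of these genes, held 4 in WT and 2 in HKO at median depths of 6892 and 2781 UMIs.

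The same order held at equal depth. After each barcode was thinned to 500 UMIs, an expected 4.69 (WT) and 3.84 (HKO) of these 20 genes were found in hepatocyte-poor barcodes, 0.570 and 1.66 in hepatocyte-rich ones and 0.908 and 0.866 in T cell barcodes. The hepatocyte-rich barcodes lay below T cells in WT and above them in HKO, and below the hepatocyte-poor ones in both. The name macrophage is used below only for the 46 hepatocyte-poor barcodes, although the markers of some, given further on, go against it, and the full set is called the Clec4f-negative barcodes. The hepatocyte-poor macrophages had 125450 UMIs in WT (median 11465 per barcode) and 165213 in HKO (median 2439).

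**Figure D1:**
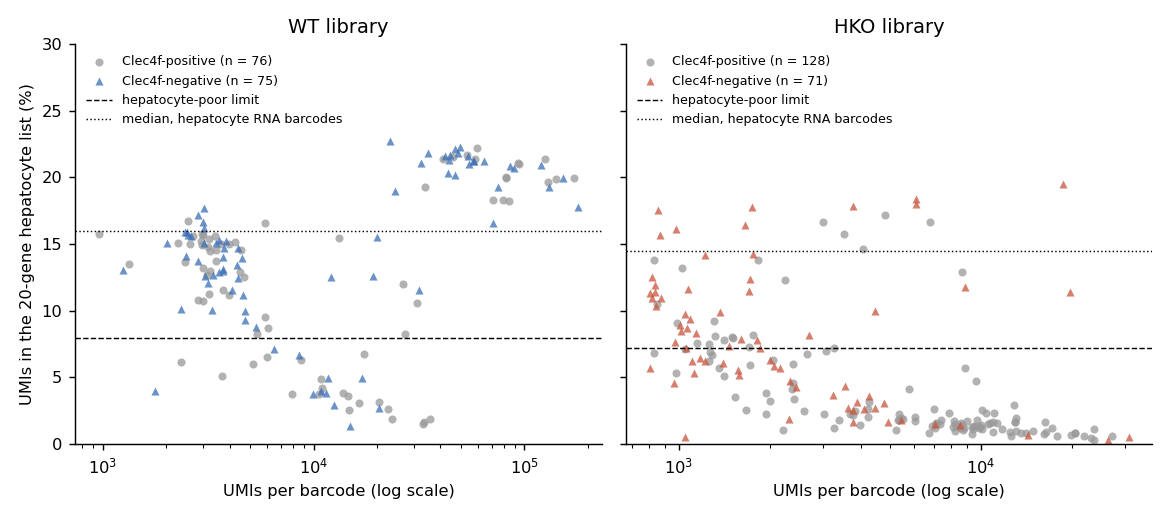
UMIs per barcode (log axis) against the share of UMIs in 20 hepatocyte genes, for Clec4f-negative (triangles) and Clec4f-positive (circles) barcodes of each library. The dashed line is the hepatocyte-poor limit and the dotted line the median of hepatocyte RNA barcodes; 64 of 75 WT triangles lie above the dashed line, against 36 of 71 in HKO.

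The edge of the selection differed between libraries. Barcodes just inside it, with 3 of the 6 genes, had a median hepatocyte share of 16.2% in 49 WT and 9.68% in 32 HKO barcodes. Barcodes just outside it on the number of genes, with 2 genes and no Clec4f, had 16.0% in 313 WT and 12.7% in 107 HKO barcodes. Barcodes just outside it on Clec4f, with a single Clec4f UMI, had 15.6% in 34 WT and 6.95% in 21 HKO barcodes. In WT the inside and outside barcodes thus carried nearly the same hepatocyte share.

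Markers of other cells were counted in the hepatocyte-poor macrophages. At least 2 of 12 T and NK cell markers were present in 1 of 11 WT and 2 of 35 HKO macrophages, at least 2 of 9 B and plasma cell markers in 1 and 2, and at least 2 of 8 neutrophil markers in 0 and 2. Summed T and NK markers ranged from 0 to 11501 CPM (UMIs in each 1000000) in WT and from 0 to 22550 in HKO, with Gzma, Klrb1c and Ncr1 at 0 in both. Summed neutrophil markers ranged from 0 to 202 in WT, where S100a8, S100a9 and Ly6g were at 0, and reached 85500 in a single HKO macrophage. Of 10 dendritic cell markers, 3 were detected in WT (Flt3, Clec9a and Cd209a) and 2 in HKO (Flt3 and Clec9a). Xcr1, Zbtb46 and Ccr7 were at 0 in both. At least 2 of the 10 were present in 1 of 11 WT and 1 of 35 HKO macrophages. Their sum reached 402 CPM in a single WT macrophage and 1040 in a single HKO macrophage. At least 2 of 8 keratin and other cholangiocyte markers were found in 5 of 11 WT macrophages (582 CPM summed, up to 3128 in a single macrophage) and 2 of 35 in HKO (103 CPM), with Epcam, Krt19 and Krt7 at 0 in both. In the hepatocyte-rich WT barcodes they were found in 41 of 64. At least 2 of the 10 endothelial genes of the selection were present in 1 of 11 WT and 3 of 35 HKO macrophages. At least 2 of its 7 stellate cell genes were present in 0 and 3. The endothelial sum reached 7605 CPM and the stellate sum 2852 CPM in single HKO macrophages. These genes played no part in the alternative described next. In all, 2 WT and 5 HKO macrophages held at least 2 markers of a T and NK, B and plasma or neutrophil list. Several results are also given without them and without the Clec4f-positive barcodes of the same kind, which left 9 and 30 macrophages and 14 and 74 Clec4f-positive barcodes. The part of the remaining markers in the results was not tested.

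Absence of Clec4f varied with depth in HKO. All hepatocyte-poor barcodes that met the macrophage criteria, with or without Clec4f, were grouped by their UMIs. Of HKO barcodes with 2000 to under 5000 UMIs, 46.0% (29.5 to 63.1, n = 37) had no Clec4f, and of those with 1000 to under 2000 UMIs, 47.6% (25.7 to 70.2, n = 21). At 5000 to under 10000 UMIs the share was 7.14% (1.498 to 19.5, n = 42), and at 10000 or more it was 8.11% (1.70 to 21.9, n = 37). In WT, 33.3% (14.6 to 57.0, n = 21) of barcodes with 10000 or more UMIs had none. The deep HKO interval and the deep WT interval overlapped.

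How fast Clec4f is lost with depth was described by thinning the Clec4f-positive barcodes. Hepatocyte-poor Clec4f-positive barcodes reduced to 1000 UMIs would have lost every Clec4f UMI in 27.9% of WT and 19.1% of HKO cases. At 2000 UMIs the loss would be 11.5% and 7.17%, and at 5000 UMIs 2.11% and 1.80%. These barcodes were chosen for holding a Clec4f UMI, so the loss is understated for macrophages with less Clec4f and sets no expected share for the Clec4f-negative ones. Cd5l, a secreted protein that Kupffer cells make in large amounts, was counted per C1q UMI. For each 100 UMIs of C1qa, C1qb and C1qc together, Clec4f-positive barcodes held 59.8 (WT) and 80.5 (HKO) Cd5l UMIs and the Clec4f-negative macrophages 54.2 and 33.2. In WT, 2 macrophages held 220 of the 226 Cd5l UMIs, and the other 9 held 2.96 for each 100 C1q UMIs. Without the 2 highest in HKO, the other 33 held 21.1. Cd5l and C1q took part in choosing both sets, so these ratios are a description.

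**Figure D2:**
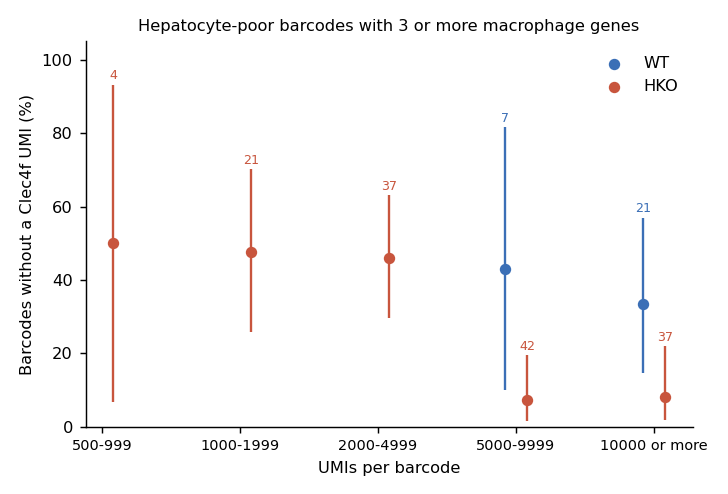
Share of hepatocyte-poor macrophage barcodes without a Clec4f UMI, by UMIs per barcode, in WT (blue) and HKO (red); bars are exact binomial 95% intervals, numbers are barcodes, and bins with fewer than 4 barcodes are not drawn. In HKO the share lies between 46.0% and 50% below 5000 UMIs and is 7.14% and 8.11% above.

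Clec4f-negative macrophages differed from Clec4f-positive barcodes of the same library in Kupffer cell genes. CPM is taken over all UMIs of a class, from 11 against 20 barcodes in WT and 35 against 106 in HKO, all hepatocyte-poor. Of 2761 genes with at least 30 UMIs in each comparison, 118 (4.27%) lay 2-fold or more below the Clec4f-positive level in both libraries and 37 (1.34%) 2-fold or more above it. Over the full Clec4f-negative set, hepatocyte-rich barcodes included, these were 206 (3.71%) and 9 (0.162%) of 5555 genes. Of 13 measured genes in a list of resident Kupffer cell genes, 12 were lower in both libraries, as were 921 of all 2761 genes, and 9 at least 2-fold lower. The median log2 ratio of the list was -2.43 in WT and -1.88 in HKO, against -0.01 and -0.11 over all genes measured.

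Vsig4, a complement receptor for C3b-coated particles, stood at 199 CPM in WT Clec4f-negative macrophages (129 to 294) and 1991 in WT Clec4f-positive barcodes. In HKO the values were 96.8 (55.4 to 157) and 1373. A single WT macrophage held 24 of the 25 Vsig4 UMIs, leaving 1 among the others, and in HKO 10 of 35 macrophages held Vsig4 with at most 5 UMIs. Folr2, a folate receptor of resident macrophages, was at 31.9 against 372 in WT and 24.2 against 468 in HKO. The WT Vsig4 ratio of 0.100 became 0.00480 without the highest barcode of each class.

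Marco, a scavenger receptor, had no UMI in the WT Clec4f-negative macrophages and was there at most 0.0731 of the 327 CPM of the Clec4f-positive barcodes, with the 0 set to 3 UMIs. Marco was at 24.2 against 212 in HKO. Timd4, the phosphatidylserine receptor of long-lived resident Kupffer cells, had 0 UMIs in 11 WT macrophages and 2 UMIs in 2 of 35 HKO macrophages, against 93.0 and 159 CPM in Clec4f-positive barcodes. Slc40a1 encodes ferroportin, the iron exporter, and was at 391 against 1577 in WT and 593 against 1897 in HKO. T cell barcodes gave Slc40a1 at 63.1 and 61.1.

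Receptors for dying cells and for glycoproteins were also lower. Of 10 measured efferocytosis and scavenger receptor genes, 8 were lower in both libraries and 3 at least 2-fold lower, against 921 lower in both libraries among all 2761 genes. Mertk, a kinase that recognises apoptotic cells, was at 422 against 990 in WT and 496 against 1056 in HKO. Mrc1, the mannose receptor, was at 327 against 955 in WT and 278 against 1023 in HKO. Neither gene was absent: Mertk was found in 5 of 11 WT and 16 of 35 HKO macrophages.

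Genes of cells recently derived from monocytes were higher than in Clec4f-positive barcodes. Of 7 measured genes in the monocyte-derived list, 6 were higher in both libraries and 4 at least 2-fold higher, against 699 higher in both among all 2761 genes, with list medians of 4.31 (WT) and 2.92 (HKO). Without the highest barcode of each gene the WT median was 0.64 over 4 genes and the HKO median 1.64 over 9. Without barcodes holding T and NK, B or neutrophil markers the medians were 2.55 over 6 genes and 2.76 over 8. The same alternative over the full Clec4f-negative set, hepatocyte-rich barcodes included, turned the WT median to -0.57.

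Ccr2, the chemokine receptor that brings monocytes out of the marrow and into tissue, stood at 287 CPM in WT Clec4f-negative macrophages (201 to 397). No Ccr2 UMI was found in 20 WT Clec4f-positive barcodes, so that the level was at least 29.8-fold higher in the former, with the 0 set to 3 UMIs. In HKO, Ccr2 was at 236 (168 to 323) against 12.2, a 19.3-fold difference. The UMIs came from 6 of 11 WT and 6 of 35 HKO macrophages, whose counts were 12, 10, 7, 4, 2 and 1 in WT and 11, 10, 7, 6, 3 and 2 in HKO. Ccr2 in T cell barcodes was 31.6 and 41.2 CPM.

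Cx3cr1, the fractalkine receptor, followed Ccr2. It was at 303 (214 to 416) against 12.8 CPM in WT and 182 (122 to 259) against 36.7 in HKO, and was found in 6 of 11 and 8 of 35 macrophages. S100a4, S100a6 and F13a1 had no UMI in the WT Clec4f-positive barcodes. In the WT Clec4f-negative macrophages S100a4 was at 223 and S100a6 at 303, and in HKO they were at 623 and 678 against 22.2 and 54.5. T cell barcodes also held S100a4 (258 in WT, 301 in HKO) and S100a6 (686 and 771), so neither gene separates these macrophages from lymphocytes. F13a1, the coagulation factor XIII subunit of monocytes, had 6 UMIs in 3 WT and 39 UMIs in 5 HKO macrophages, against 2 UMIs in 106 HKO Clec4f-positive barcodes.

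**Figure D3:**
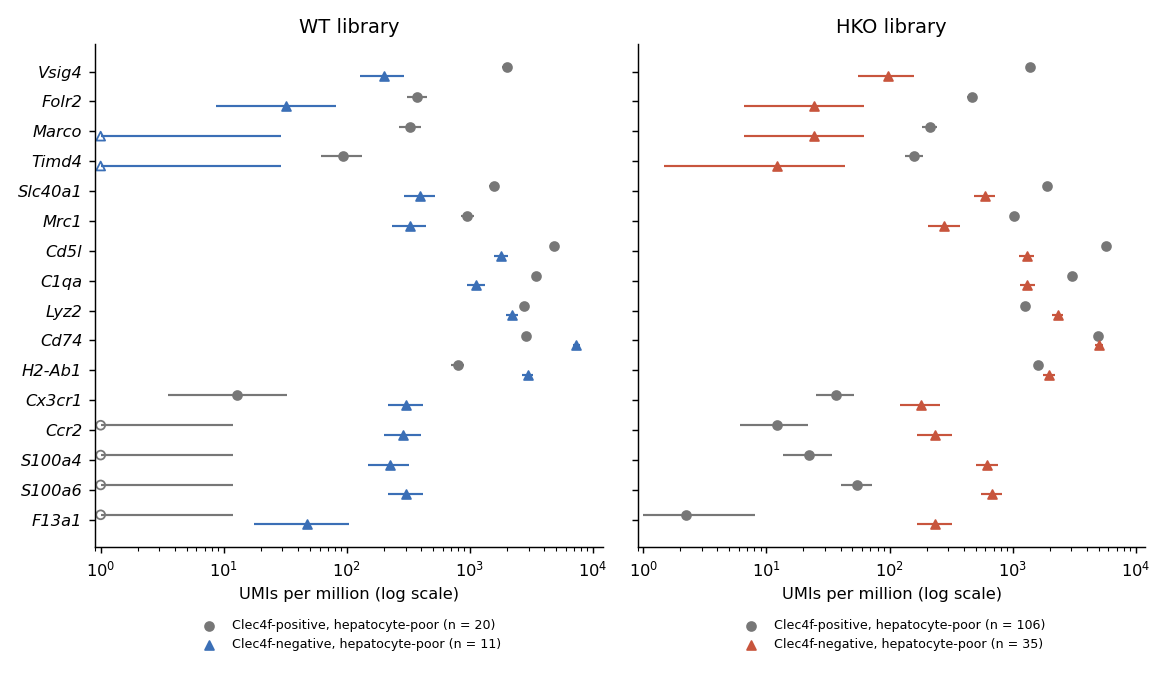
CPM (log axis) of 16 genes in hepatocyte-poor Clec4f-negative macrophages (triangles) and Clec4f-positive barcodes (grey circles) of each library; bars are exact Poisson 95% intervals, cut off on the left at 1, and open symbols drawn at 1 mark genes with no UMI. Kupffer cell genes at the top are lower and Cx3cr1, Ccr2, S100a4, S100a6 and F13a1 at the bottom higher in the Clec4f-negative macrophages of both libraries.

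MHC class II genes, which present antigen to helper T cells, were higher in WT and near the Clec4f-positive level in HKO. Cd74, the invariant chain, was at 7342 (6875 to 7831) against 2869 CPM in WT, a 2.56-fold difference, and at 5024 (4688 to 5378) against 4914 in HKO. H2-Ab1 was at 2957 against 795 in WT and 1973 against 1613 in HKO. The list median was 1.35 in WT over 7 genes and 0.12 in HKO over 8. Cd74 was detected in 42 of the 46 macrophages. After thinning to 500 UMIs, an expected 75.7% of WT and 65.8% of HKO macrophages held Cd74, against 1.295% and 1.14% of T cell barcodes. Summed dendritic cell markers, of which 3 of 10 were detected in WT and 2 in HKO, were at 79.7 against 44.9 CPM in Clec4f-positive barcodes in WT and at 24.2 against 74.5 in HKO. The WT macrophage with the most Cd74 (207 UMIs) held 6 UMIs of Itgax, an integrin of dendritic cells and some macrophages, and 1, 3 and 1 UMIs of C1qa, C1qb and C1qc. The part of dendritic cells in these levels was not tested.

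Lipid-associated macrophage genes were also set against the Clec4f-positive level. In WT 18 of 19 measured genes were lower, with a median of -2.17, against 1404 of all 2786 genes and -0.01. In HKO 13 of 20 were higher, with a median of 0.28, against 2334 of all 5374 genes and -0.11. The HKO median was -0.05 with equal weights (-0.26 over all genes) and -0.30 without the highest barcode of each gene (-0.35). With barcodes of at most 10000 UMIs it was -0.10 (-0.20), and WT had 3 measured genes and a median of 0.18 (0.14).

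Lyz2, lysozyme, was lower than in Clec4f-positive barcodes in WT and higher in HKO, but with barcodes of at most 10000 UMIs the WT ratio turned to 2.48. It was at 2200 against 2728 CPM in WT and 2336 against 1268 in HKO. C1qa, which took part in the choice, was at 1116 against 3452 in WT and 1320 against 3052 in HKO and is given as a description. Among the top 10 genes by ratio in both libraries that no single barcode dominated was Atf3, a stress-induced transcription factor (454 against 170 in WT, 472 against 245 in HKO). Hepatocyte transcripts such as Hp, Rbp4 and Cyp3a11 were also in that group of 10. The summed hepatocyte list was 3.90% of UMIs in WT and 2.06% in HKO Clec4f-negative macrophages, against 3.14% and 1.55% in Clec4f-positive barcodes.

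Genotypes were next set side by side. Over the full Clec4f-negative set, 1700 of 6988 measured genes (24.3%) lay 2-fold or more above the WT level in HKO and 1440 (20.6%) as far below it. All 17 measured macrophage genes outside the selection were at least 2-fold higher in HKO, as were 12 of 12 monocyte-derived and 8 of 8 MHC class II genes, with list medians of 3.23, 4.04 and 3.05. The genes with the highest ratios were Soat1 (21.2-fold), Cd300a, Fxyd5, Lst1 and H2-DMb1. Those with the lowest were Srebf1 (0.104), Gcgr, Gldc, Proc and Fam25c, of which Srebf1, Gcgr, Gldc and Proc are known for their expression in hepatocytes. The hepatocyte list held 18.5% of all UMIs of the WT barcodes and 6.60% of the HKO barcodes.

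Among the hepatocyte-poor macrophages the libraries were closer. Of 1840 measured genes, 142 (7.72%) lay 2-fold or more above the WT level in HKO and 213 (11.6%) as far below it. The median over these genes was -0.02 on the log2 scale. Among 294 genes that no single barcode dominated, Mrpl52 (2.66), Calm2 and Soat1 had the highest ratios. Ass1 (0.260), Fbp1, Cdo1, Hamp and Rbp4, the last a hepatocyte transcript named above, had the lowest. The hepatocyte RNA of each library, scaled to the Alb level of the macrophages, came to 24.2% of their UMIs in WT and 15.1% in HKO. Its part in the counts of higher and lower genes was not tested. Of 17 macrophage genes outside the selection, 10 were higher and 7 lower, and 2 passed 2-fold, one of them Cd68 at 135 and 406 CPM. No measured MHC class II gene of 8 passed 2-fold, with Cd74 at 0.684 (HKO over WT) and H2-Aa at 0.972. With macrophages of at most 10000 UMIs, 3 of 5 measured genes were at least 2-fold lower in HKO (median -1.21, Cd74 0.384, H2-Ab1 0.349), against 66 of all 613 genes. With equal weights it was 3 of 8 (median -0.62), against 272 of 1840. Without the highest barcode of each gene, 4 of 7 were higher and the median was 0.024. The genotype differences given from here on are those of the 11 WT and 35 HKO hepatocyte-poor macrophages.

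Lipid-associated macrophage genes were higher in HKO Clec4f-negative macrophages. Of 20 listed genes 18 were measured, of which 16 were higher and 12 at least 2-fold higher, none was 2-fold lower, and the median log2 ratio was 1.56, against 7.72% of all genes at least 2-fold higher. Without the highest barcode of each gene, 12 of 12 measured genes were higher and 8 at least 2-fold, against 109 of all 1213 genes. With each barcode weighted equally, 14 of 18 were higher, 6 were at least 2-fold higher and the median was 0.42, against 99 of 1840 and -0.20 over all genes. With macrophages of at most 10000 UMIs, 4 in WT and 32 in HKO, 9 of 9 were higher and 4 at least 2-fold, against 89 of all 613 genes. Of the 26672 UMIs of these 4 WT macrophages, 6521 came from a barcode with 41 Ccl5 UMIs. Its markers, given further on, go against the name macrophage, and it is present wherever that limit is set on the hepatocyte-poor macrophages. Without barcodes holding other leukocyte markers, 16 of 17 were higher and 12 at least 2-fold, against 101 of 1407. The mitochondrial share of UMIs, which is high in damaged cells, had a median of 2.45% in WT (1.53 to 11.9) and 6.13% in HKO (0.953 to 46.8). Without the 6 HKO macrophages over 20%, 15 of 17 genes were higher and 11 at least 2-fold, against 148 of 1739, and the median was 1.73.

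Lgals3, the galectin of phagocytic macrophages, stood at 319 CPM in WT and 1604 in HKO, a 5.03-fold difference (3.60 to 7.20). It was found in 10 of 11 WT macrophages, with at most 12 UMIs in any, and in 21 of 35 HKO macrophages, with up to 95. Fabp5, a fatty acid carrier, was 7.71-fold higher (104 and 799). Lpl, which releases fatty acids from lipoproteins, was 3.65-fold higher (407 and 1483), but 1.33-fold with macrophages of at most 10000 UMIs. Cd63, a lysosomal membrane protein, was 5.25-fold higher (87.7 and 460).

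Mmp12 is an elastase of macrophages. In WT 4 of 11 macrophages held it, with 2, 2, 1 and 1 UMIs. In HKO 6 of 35 held it, with 79, 41, 25, 18, 2 and 1. The ratio was 21.0 (9.45 to 58.1), 16.9 without the highest barcode of each library and 3.99 with macrophages of at most 10000 UMIs. In HKO the level of 1005 CPM was close to the 943 of Clec4f-positive barcodes, and in WT 47.8 stood against 2183. The HKO ratio to Clec4f-positive barcodes, 1.07, became 0.692 without the highest barcode of each class and 0.376 with barcodes of at most 10000 UMIs, and the WT ratio rose from 0.0219 to 0.107 without barcodes holding other leukocyte markers.

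Spp1, osteopontin, had 2 UMIs in WT and 135 in HKO, of which 127 came from 1 macrophage. Trem2, the lipid receptor for which these cells are best known, was at 104 CPM in WT and 127 in HKO (ratio 1.23, interval 0.586 to 2.67), and was found in 7 of 11 and 9 of 35 macrophages. Gpnmb was at 87.7 and 260, a ratio of 2.97 (1.51 to 6.38). It was found in 4 of 11 WT and 6 of 35 HKO macrophages, with 21 and 12 UMIs in the highest HKO macrophages. No Gpnmb ratio was measured without the highest barcode of each library or with macrophages of at most 10000 UMIs. The lysosomal protease Ctsd was at 925 and 1162, with an interval of the ratio that reached from 0.993 to 1.60. The intervals of the Trem2 and Ctsd ratios held 1 and that of Gpnmb did not. They cover counting error only and leave out the spread between macrophages, so they do not separate these genes.

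Clec4f-positive barcodes gave the other direction. Of 19 measured genes of the list, 18 were lower in HKO, 10 of them by 2-fold or more, against 4.16% of 5789 genes, none was 2-fold higher (6.75% of all genes), and the median was -1.04, against 0.08 over all genes. The median was -1.14 with a mitochondrial share of at most 20%, -0.55 without barcodes holding other leukocyte markers, -0.59 with equal weights, -0.47 without the highest barcode of each gene and -1.07, with 19 of 19 genes lower, when HKO barcodes over 10000 UMIs were left out. It turned when both libraries were limited to 10000 UMIs, which left 6 WT and 72 HKO barcodes, with 11 of 14 genes higher and a median of 0.82, against 0.30 over all 2558 genes. The difference between Clec4f-negative and Clec4f-positive barcodes was not tested, and its direction in the latter turned under that limit alone of the 6 alternatives tried.

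**Figure D4:**
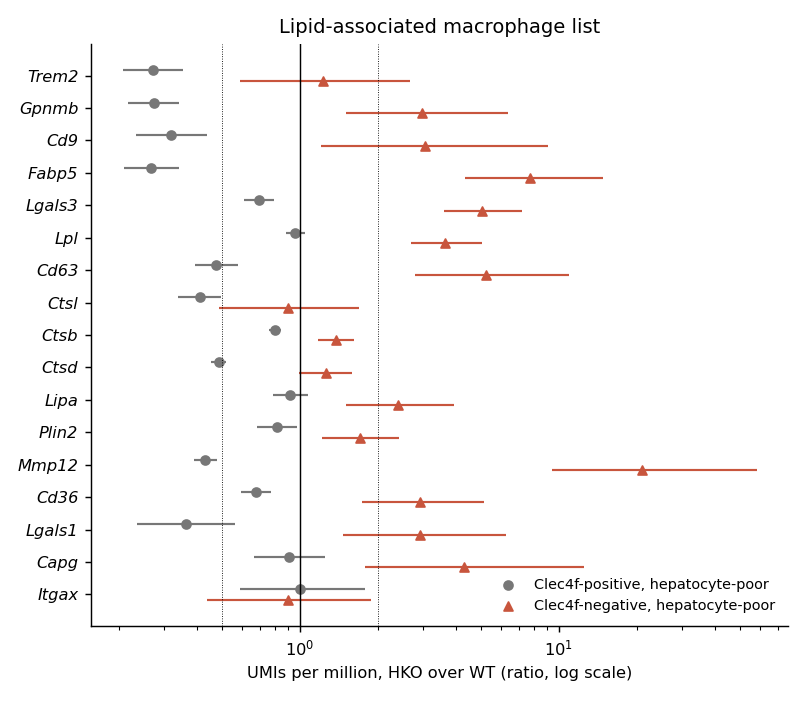
HKO over WT ratio of CPM (log axis) for 17 lipid-associated macrophage genes measured in both hepatocyte-poor classes, Clec4f-negative (triangles) and Clec4f-positive (grey circles); bars are exact conditional 95% intervals, the solid line is 1 and the dotted lines mark 2-fold. In Clec4f-negative macrophages 15 of the 17 genes lie above 1, and in Clec4f-positive barcodes 16 lie below 1.

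Iron genes were higher in HKO. Of 6 measured iron recycling genes 6 were higher and 3 at least 2-fold, against 881 and 142 of all 1840 genes. With equal weights 4 of 6 were higher and 2 at least 2-fold (99 of 1840), and without the highest barcode of each gene 6 were higher and 1 at least 2-fold (109 of 1213). Fth1 and Ftl1, the ferritin chains that store iron, were at 3523 and 3045 CPM in WT and 8401 and 6640 in HKO. Without the highest barcode of each library the Fth1 ratio fell from 2.38 to 1.57. Hmox1, which opens the haem ring, was at 104 in WT and 448 in HKO, a 4.32-fold difference (2.38 to 8.50) that was 8.83-fold with macrophages of at most 10000 UMIs.

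Inflammatory genes did not move one way. Of 10 measured pro-inflammatory genes, 7 were lower in HKO, 1 of them at least 2-fold, and 2 were at least 2-fold higher, against 959 lower, 213 at least 2-fold lower and 142 at least 2-fold higher among all 1840 genes. With macrophages of at most 10000 UMIs, 5 of 6 were higher, 3 of them by 2-fold or more, against 89 of all 613 genes. The list median was then 1.02, against 0.13 over all genes, and 1 gene was lower by 2-fold or more, against 66. Il1b, the cytokine cleaved by the inflammasome, was at 622 CPM in WT and 206 in HKO (ratio 0.331, interval 0.215 to 0.501; 0.193 with macrophages of at most 10000 UMIs), and was found in 6 of 11 and 9 of 35 macrophages. Tnf was at 359 and 248, a ratio of 0.692 that turned to 1.36 without the highest barcode of each library, and Ccl4 at 1706 and 1404. Cxcl2, a neutrophil attractant, was at 502 and 1211, and Ccl2, the ligand of Ccr2, had 2 UMIs in WT and 26 in HKO. Il10, an anti-inflammatory cytokine, had no UMI in WT and 27 in 7 HKO macrophages, at least 6.83-fold higher with the 0 set to 3 UMIs.

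Monocyte genes differed by member rather than as a list. The Ccr2 ratio was 0.823, 0.987 without the highest barcodes and 1.14 with macrophages of at most 10000 UMIs, and its intervals overlapped between libraries. Cx3cr1 stood at a ratio of 0.600 (0.512 and 0.613 under the same alternatives), while S100a4 was 2.79-fold and S100a6 2.24-fold higher. With macrophages of at most 10000 UMIs S100a4 was 5.79-fold higher, and without barcodes holding other leukocyte markers S100a6 was 1.37-fold higher. F13a1 was 4.94-fold higher, with 21 of 39 HKO UMIs in 1 macrophage, and stood at 17.6 and 134 CPM without the highest barcode of each library. Chil3, found in 2 macrophages of each library, was at 104 and 315 CPM, but 49 of 52 HKO UMIs came from 1 macrophage, and without the highest barcode it was at 26.3 in WT and 22.3 in HKO. The list median was 0.95 over 11 genes and -0.33 with each barcode weighted equally, so the direction of the list depended on the weighting. Without barcodes holding other leukocyte markers it was 0.23 over 8 genes.

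Targets of miR-33 were then examined, although the Cre in HKO mice acts in hepatocytes. The microRNA gene Mir33 was not among the 32285 listed genes. Abca1, the cholesterol exporter with miR-33 sites, was at 375 CPM in WT and 514 in HKO (ratio 1.37, interval 0.951 to 2.00). Abcg1 was at 167 and 206 (interval 0.693 to 2.23) and Cpt1a at 128 and 127 (0.495 to 2.04). The intervals of these 3 ratios held 1 and cover counting error only. Crot, a peroxisomal carnitine acyltransferase, was at 446 and 170. Hepatocyte RNA scaled by Alb would hold 38.8 of the 56 WT and 26.0 of the 28 HKO Crot UMIs. For Cpt1a it would hold 6.04 of 16 and 6.80 of 21, and for Abca1 4.45 of 47 and 4.55 of 85. Over the full WT Clec4f-negative set the same scaling came to 2732 Crot UMIs, above the 1529 counted. The part of hepatocyte RNA in these ratios was not tested. Soat1, which esterifies cholesterol for storage, was at 144 and 339, a 2.36-fold difference (1.37 to 4.27).

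Single macrophages showed how mixed the 46 were. Of them 12 held Ccr2, 14 Cx3cr1, 10 Mmp12, 12 Vsig4 and 30 Cd5l, the last with 10 or more UMIs in only 5. Cx3cr1 was found in 9 of the 12 with Ccr2, and Vsig4 in 1 of those 12 and in 0 of the 10 with Mmp12. All 12 with Ccr2 and all 10 with Mmp12 held Cd74. These are counts of detection in barcodes of unequal depth and carry no test.

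The deepest WT macrophage (20407 UMIs) held 112 Cd5l and 109 Cd74 UMIs, and another of 12464 UMIs held 108 Cd5l and the 24 Vsig4 UMIs named above. The former had no Vsig4 UMI. The deepest HKO macrophage (30860 UMIs) combined 32 Ly6c2, 49 Chil3 and 21 F13a1 UMIs, genes of classical monocytes, with 88 Cd5l and 169 Lyz2 UMIs. The next (26302 UMIs) held 127 Spp1, 95 Lgals3, 41 Mmp12 and 21 Gpnmb UMIs. Another of 14376 UMIs held the 79 Mmp12 UMIs beside 164 Cd74 UMIs. Together these deepest 3 HKO macrophages gave 43.3% of the HKO macrophage UMIs.

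Several of the 46 barcodes carried genes of other leukocytes. A WT barcode of 6521 UMIs held 41 Ccl5, 8 Nkg7 and 4 Cd3e UMIs, against 1 UMI each of C1qa, C1qb, C1qc and Cd5l and none of Adgre1 and Csf1r. A HKO barcode of 2000 UMIs held 97 S100a9 and 62 S100a8 UMIs, against 1 each of C1qb, Adgre1, Cd5l and Lyz2. The markers of both go against the name macrophage, and they are counted among the 46 only by the selection. Another 2 HKO barcodes held 42 and 47 Ccl5 UMIs. The barcode with 47 also held 2 Cd3e UMIs, against 1 UMI each of C1qb, Adgre1, Csf1r and Cd5l. It had none of C1qa, C1qc and Lyz2, so its markers go against the name as well. The barcode with 42 held 9, 9 and 5 UMIs of C1qa, C1qb and C1qc. No doublet caller was run, so droplets with more than 1 cell were not removed.

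**Figure D5:**
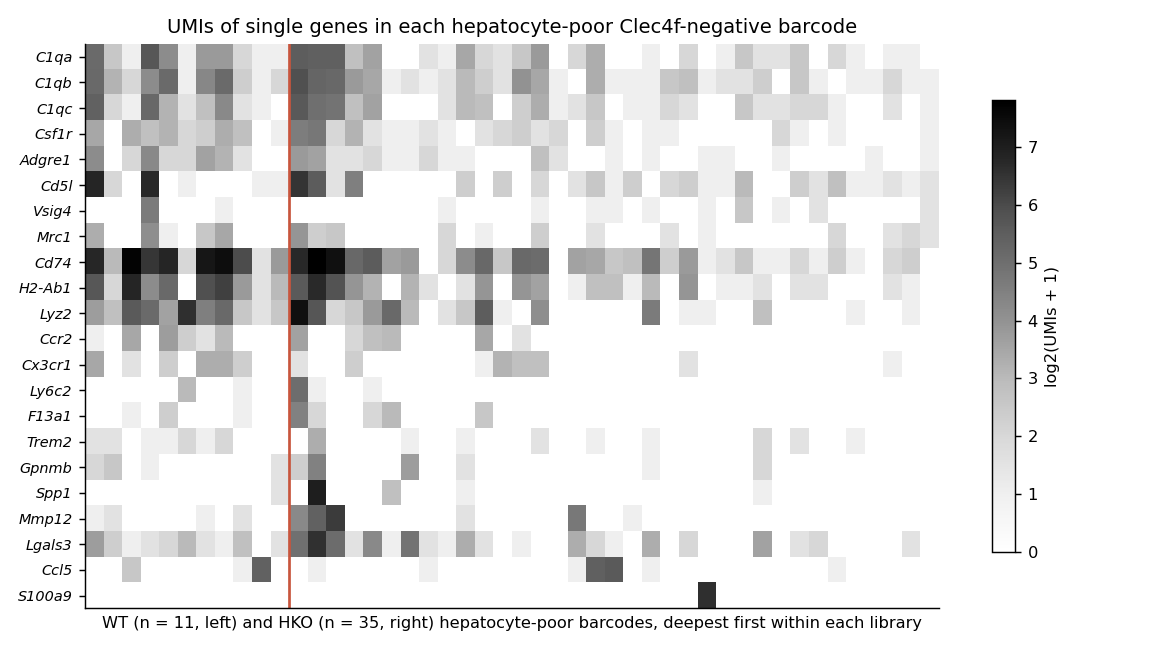
UMIs of 22 genes, as log2(UMIs + 1) in grey, in each of the 46 hepatocyte-poor Clec4f-negative macrophages, 11 WT to the left of the red line and 35 HKO to the right, deepest first within each library. Spp1 is dark in 1 HKO column, Vsig4 is dark in 1 WT column, and Cd74 is present in 42 of 46 columns.

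Genes detected most often together with Mmp12 over the whole Clec4f-negative set were those of deep barcodes. Ankhd1 was found in 17 of 19 barcodes with Mmp12 and 38 of 127 without, a difference of 59.5 percentage points, followed by Mapk6, Nsmce2, Ppp2r2a and Ankrd11, the last with 57.2. Barcodes with Mmp12 had a median of 18757 UMIs and the others 3294. Mmp12 was used as a marker of the cells but was not among the genes of the selection.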

How the data were processed

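The 2 droplet libraries were analysed from raw counts: per the file headers, the authors deposited Cell Ranger 7.1.0 matrices of UMI counts per gene and barcode, and the submitters' notes name mm10, R 3.0 and Seurat 3. Libraries held 130451427 (WT) and 52563185 (HKO) UMIs, with a median of 2658 and 1130 per barcode. Of 32285 listed genes, those with at least 30 UMIs over the classes compared were measured. UMIs were summed per class and library and divided by all UMIs of the class (CPM). Sums received exact Poisson, ratios exact conditional binomial and shares exact Clopper-Pearson 95% intervals. A sum of 0 was set to 3 UMIs over the class, which bounds the fold. With 1 library per genotype no test was run, and genes past 2-fold are counted.

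Shares at equal depth are hypergeometric expectations at 500 UMIs. Hepatocyte RNA barcodes had no UMI of the selecting macrophage genes or of the T and NK, B, neutrophil, dendritic, monocyte, endothelial and stellate lists. Clec4f and the cholangiocyte and erythroid lists were not used for them. T cell barcodes held at least 3 of 7 T cell markers. No doublet caller was run and free RNA was not removed. Shared barcodes between libraries were not counted, since barcode names were not used here for WT. Simulated Poisson sums for the full Clec4f-negative set, with folds set in genes of high counts, gave those folds back. They held no spread between barcodes, so they do not show how well the ratios of the hepatocyte-poor macrophages are measured. Members and lists were chosen with earlier results of these data known, and the hepatocyte-poor division and the alternatives within it were chosen after seeing the data.

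Named genes were those of 18 lists with at least 30 UMIs that were at least 1.5-fold apart or define their list, the genes of the selection and other cells' markers, the 5 genes most like Mmp12 in detection, and the 10 highest and 10 lowest ratios among genes with at least 60 UMIs, in at least 10 barcodes, with at most 25% of UMIs in any barcode, of which the top ones are named. Others, such as single barcodes, were chosen after their values were seen. Gene positions are from GENCODE M21 (GRCm38). Python 3.11.15, numpy 2.4.6, scipy 1.17.1 and pandas 2.3.3 were used.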

Additional observations from a re-analysis of the deposited data

Results flagged for a closer look

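The HKO over WT ratio of lipid-associated macrophage genes went in opposite directions in the 2 hepatocyte-poor macrophage classes. Over the 17 genes measured in both, the median log2 ratio was 1.54 (1.545) in Clec4f-negative macrophages and -1.04 (-1.039) in Clec4f-positive barcodes, and 15 genes were higher in the former and lower in the latter. The difference was not tested, since each genotype had 1 library. With at most 10000 UMIs per barcode in both libraries the median of the Clec4f-positive barcodes turned to 0.82, where the median over all 2558 genes was 0.30. It was -1.07, with 19 of 19 genes lower, when only HKO barcodes over 10000 UMIs were left out.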

How the results depend on the processing

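No paired analysis was possible because each genotype had 1 library. With at least 4 of the 6 macrophage genes, Clec4f-negative barcodes fell to 26 in WT and 39 in HKO; with at most 10000 UMIs, WT fell to 39; hepatocyte-poor barcodes, chosen after seeing the data, were 11 and 35. Genes at least 2-fold higher in HKO over all Clec4f-negative barcodes were 893 with 4 genes, 191 with at most 10000 UMIs, 954 without barcodes holding lymphocyte or neutrophil markers, 1009 with equal weights, 2742 and 560 with minima of 10 and 100 UMIs, and 142 among hepatocyte-poor barcodes. Lower genes were 889, 203, 825 (minimum of 100) and 213 (hepatocyte-poor). Over the same set, 9 of 5555 genes (0.162%) were at least 2-fold higher and 206 (3.71%) lower than in Clec4f-positive barcodes in both libraries. The higher count became 21 with 4 genes, 2 with at most 10000 UMIs, 22 without lymphocyte or neutrophil markers, 23 with equal weights, 4 without the top barcode, 28 and 0 with minima of 10 and 100, and 37 among hepatocyte-poor barcodes. The lower count became 109, 34, 334 and 86 (minima of 10 and 100) and 118 (hepatocyte-poor).

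Directions turned among hepatocyte-poor barcodes for HKO over WT list medians of Kupffer (-0.10), pro-inflammatory (-0.41), MHC class II (-0.17), chemokine (-0.11) and matrix genes (-0.17), and for ratios of Cd74 (0.684), H2-Ab1 (0.667), H2-Aa (0.972), Vsig4 (0.486), Ccr2 (0.823), Cx3cr1 (0.600), Il1b (0.331), Tnf (0.692) and Mrc1 (0.852), and for Adgre1 (0.619) and Cd5l (0.722), which the selection used and which are a description. Il1b also turned with 4 genes (0.806) and at most 10000 UMIs (0.657), and Spp1 without its top barcode (0.804). Against WT Clec4f-positive barcodes, at most 10000 UMIs turned the pan-macrophage median (0.0354), Lyz2 (1.32), Fcer1g (1.13), Lgals3 (1.34) and, of the selecting genes, C1qb (1.08) and Csf1r (1.10), and leaving out lymphocyte or neutrophil markers turned the monocyte-derived median (-0.57). The cause was not tested. Of 1159 gene ratios 694 stayed within the counting interval of the reported ratio, and of 548 list medians 473 stayed within the order-statistic interval of the reported median. Subtracting hepatocyte RNA scaled by Alb gave no value over the full set, since it came to 106.5% of the UMIs of the WT Clec4f-negative barcodes. Among the hepatocyte-poor macrophages it came to 24.2% in WT and 15.1% in HKO, and the ratios given for them were taken without its removal. Depth differed between the hepatocyte-poor macrophages, with medians of 11465 UMIs in WT and 2439 in HKO, and WT had 11 of them.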

Other observations

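Lists not described above were also counted in the hepatocyte-poor Clec4f-negative macrophages. Of all 2761 genes measured against Clec4f-positive barcodes, 699 were higher and 921 lower in both libraries. Of 77 measured cytosolic ribosomal protein genes, 60 were higher than in Clec4f-positive barcodes in both libraries and 2 lower, none of them by 2-fold, with medians of 0.25 (WT) and 0.35 (HKO). Of 7 measured type I interferon response genes, 6 were lower in both libraries and 2 at least 2-fold lower. Of 12 genes of cholesterol efflux and lysosomal lipid handling, 10 were lower in both libraries and none by 2-fold. In HKO against WT, 881 of 1840 genes were higher and 959 lower. There, 12 genes of endoplasmic reticulum chaperones divided into 6 higher and 6 lower, and of 13 immediate early genes 9 were lower and 4 at least 2-fold lower, against 213 at least 2-fold lower among all 1840 genes.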
